A study of Mus musculus with 4 samples.

Results

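The 44 genes described here carry the names of proteins of the cytosolic ribosome, and 4 of them, Rpl6l, Rps3a2, Rps3a3 and Rps4l, are listed as pseudogenes in the reference gene table. They were chosen by name: a gene was taken if an array feature carried exactly 1 gene symbol and that symbol was a cytosolic ribosomal protein name of the large subunit (Rpl, Rplp) or the small subunit (Rps, Rpsa), without the Rps6k kinases and without names ending in -ps. A gene with several such features was read from the brightest, by its mean on the 4 arrays. The rule gave 25 large subunit and 19 small subunit genes of 30702 genes with a feature of 1 symbol. A further 45 genes of the reference gene table match the same name pattern but have no feature with exactly 1 symbol in the annotation used here, and they were not analysed by name, Rplp1, Rplp2, Rpl5, Rps6, Rpl10, Rps27a, Rpl13a and Rps3 among them.

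Total RNA from sorted small intestinal cells of 8-week-old mice carrying Lgr5GFP-CreERT2 was measured on whole-transcript arrays, with 1 array for each of 4 groups. The groups were GFP-positive stem cells with a mutated LncGata6 (LncGata6 mut), GFP-positive stem cells of Ehf-/- mice, GFP-positive stem cells of the wild type, and GFP-negative non-stem cells of the wild type. They are called here the LncGata6 mutant, Ehf knockout, wild-type stem and non-stem arrays. LncGata6 is a long noncoding RNA transcribed beside Gata6, and Ehf is an epithelial ETS transcription factor. In the reporter line, GFP and CreERT2 are driven by Lgr5, the receptor gene that marks crypt base stem cells. The collection protocol names another cell type for the sort, so the gate is uncertain, and neither the number of mice behind an array nor the nature of the LncGata6 mutation is stated in the labels used here. With 1 array per group no difference has an error estimate, no test can be run, and precision is limited by how few arrays there are.

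The ribosome joins a small subunit, which binds the mRNA and reads its codons, to a large subunit, which forms the peptide bond and holds the exit tunnel and the stalk that recruits elongation factors. Its proteins are encoded by many single genes scattered over the genome, most with numerous processed pseudogenes, and their mRNAs usually begin with a C followed by a run of pyrimidines, the terminal oligopyrimidine tract, through which mTOR and LARP1 set their translation. Dividing crypt cells make ribosomes at a high rate, and cells that differentiate usually lower it.

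On the LncGata6 mutant array 43 of the 44 genes read below the wild-type stem array, by a median of 0.79 on the log2 scale, against 0.06 below for all genes. On the wild-type stem array 36 of 44 read above the non-stem array, with a median difference of 0.40 where all genes had -0.11. The Ehf knockout array differed from the wild-type stem array by a median of -0.27, close to the -0.20 of all genes, and the direction of that median turned to 0.02 under cyclic loess and to 0.0015 under quantile normalization. By the first count, none of those 43 genes could be highest on the LncGata6 mutant array or lowest on the wild-type stem array. The remaining gene, Rpl3l, read 2.65 on both arrays and was neither, so these ranks are no separate result.

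A difference was called higher or lower when it reached 1 on the log2 scale, which is 2-fold, and the brighter value reached the level limit, which is the 75th percentile over all genes of that array. The words rose and fell are kept for called differences. Of the 44 genes, 10 were called in at least 1 of the 4 comparisons. The same count over all genes was not made, so this number only serves to choose sequences and is no result. The RefSeq promoter table (GRCm38.p6) holds the start of 6 of these 10 genes. The 30 bases around the annotated start, 15 of them before it, are shown for these 6 because they were called and because the tract lies there. Capitals mark a C followed by at least 4 pyrimidines that begins within 5 bases of the start, searched on the transcribed strand only. Rpl8, Rps20, Rps3a2 and Rps3a3 are the other 4.
Rpl35 (chr2:39005117-39005146, minus strand): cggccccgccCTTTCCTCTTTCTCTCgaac
Rps9 (chr7:3704026-3704055, plus strand): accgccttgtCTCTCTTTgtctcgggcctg
Rpl22l1 (chr3:28805493-28805522, plus strand): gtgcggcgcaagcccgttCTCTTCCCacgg
Rps24 (chr14:24490663-24490692, plus strand): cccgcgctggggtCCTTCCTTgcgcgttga
Rpl37a (chr1:72711245-72711274, plus strand): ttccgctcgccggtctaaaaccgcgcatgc
Rpl4 (chr9:64173372-64173401, plus strand): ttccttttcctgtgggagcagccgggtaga
The tract was found in the first 4 and not in the windows of Rpl37a and Rpl4. For Rps24 the table gives a second start whose window has no tract. In Rpl4 a run of pyrimidines stands at the far end of the window, outside the searched bases, so a match depends on which start was annotated.

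Over all genes of the 44 with a promoter entry, 15 of 35 (42.9%) held the tract at an annotated start, beside 5718 of 27025 genes (21.2%) in the whole table. A match describes the letters and no more. The genes with and without it had median differences of -0.73 and -0.83 between the LncGata6 mutant and wild-type stem arrays, with ranges of -1.32 to -0.13 and -1.13 to 0.00. Between the wild-type stem and non-stem arrays the medians were 0.62 and 0.35. The ranges of both classes overlapped in each of the 4 comparisons.

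The levels came first. Values of different features are not on a common scale. A gene is therefore set here against itself on other arrays and against the limits of each array. Medians and ranks of brightness across genes are given only to describe the features, not amounts of RNA. The median of the 44 was 6.70 for LncGata6 mutant, 7.20 for Ehf knockout, 7.62 for wild-type stem and 6.94 for non-stem cells, where all genes had medians of 3.42, 3.24, 3.43 and 3.55. The brightest single value was 11.10, for Rpl4 on the wild-type stem array, and the dimmest 2.13, for Rpl39l on the Ehf knockout array. The control limit, the 95th percentile of an array's negative control features, lay between 5.16 and 5.62. Of the 44 genes, 27 exceeded it on all 4 arrays, 3 on 2 arrays, 3 on 1 array and 11 on none.

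**Figure D1:**
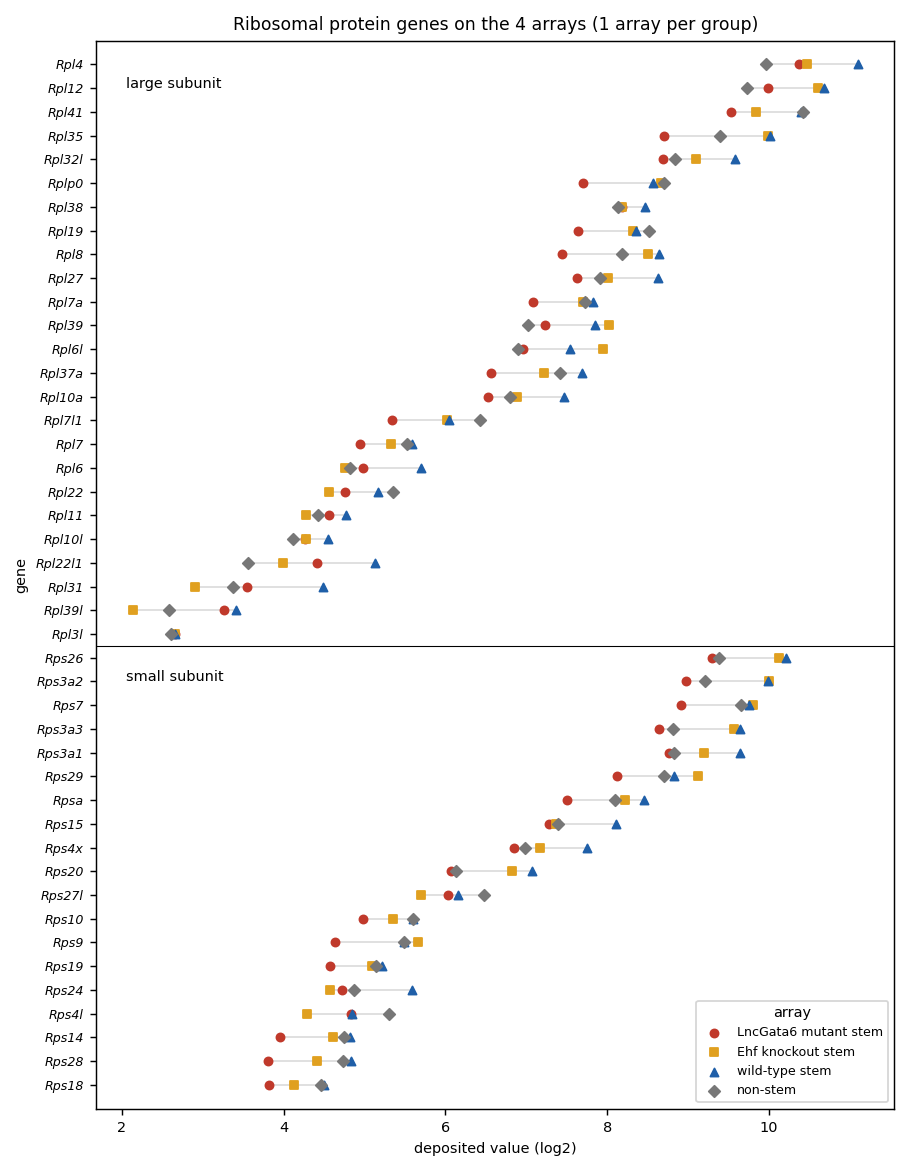
Each row is a ribosomal protein gene and each marker its deposited log2 value on 1 array, with large subunit genes above and small subunit genes below the line, sorted by mean. The red circles of the LncGata6 mutant array are the lowest marker in 28 rows, and the blue triangles of the wild-type stem array the highest in 29.

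The 6 genes with the highest means were Rpl4, Rpl12, Rpl41, Rps26, Rps3a2 and Rps7. The Rpl12 and Rpl41 features read here have IDs that name another chromosome, and the own-chromosome feature of Rpl41 had a mean of 5.27. Rpl4, whose protein reaches into the exit tunnel, read 10.37 in LncGata6 mutant, 10.47 in Ehf knockout, 11.10 in wild-type stem and 9.97 in non-stem cells. Rpl12, at the base of the stalk, read 9.99, 10.61, 10.68 and 9.73 in the same order of groups. Both were highest on the wild-type stem array and lowest on the non-stem array. Rpl41, which encodes a very short basic peptide, read 9.53 in LncGata6 mutant, 9.85 in Ehf knockout, 10.40 in wild-type stem and 10.42 in non-stem cells, so that the 2 wild-type arrays almost coincided. Rps26, a small subunit protein near the mRNA exit, read 9.30, 10.12, 10.22 and 9.38 in that order, and Rps7, which can bind MDM2, read 8.91, 9.80, 9.75 and 9.65. In Rps7 the LncGata6 mutant array alone stood apart from the other 3.

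The 6 dimmest were Rpl3l, Rpl39l, Rpl31, Rps18, Rpl22l1 and Rpl10l, which exceeded the control limit on no array. Rpl3l, the striated muscle form of Rpl3, lay between 2.61 and 2.66 on all 4. Rps18, Rps14, Rps19, Rps28, Rpl11 and Rps24 encode constitutive ribosomal proteins, yet their features also stayed under the control limit on all arrays. For such genes no fold is given. Rps19, the gene most often mutated in human Diamond-Blackfan anaemia, read 4.58 in LncGata6 mutant, 5.09 in Ehf knockout, 5.22 in wild-type stem and 5.14 in non-stem cells. Rps14, lost in the human 5q- syndrome, read 3.96, 4.60, 4.82 and 4.74 in that order, and Rpl11, which with the 5S RNA can bind MDM2, read 4.56, 4.28, 4.77 and 4.43.

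The sorted populations were checked against marker lists. Of 9 stem cell genes, 3 exceeded the control limit in LncGata6 mutant, 1 in Ehf knockout, 6 in wild-type stem and 2 in non-stem cells. Lgr5, the gene behind the sort, read 3.03 in LncGata6 mutant and 2.79 in Ehf knockout cells, against 9.41 in wild-type stem and 3.03 in non-stem cells. None of 10 general epithelial genes passed the control limit on the Ehf knockout array, where 8 of 8 neutrophil and 8 of 8 macrophage genes did. The non-stem array was the only one of the 4 on which hepatocyte genes (8 of 8) and kidney genes (7 of 7) passed. The LncGata6 mutant array had 10 of 10 enterocyte genes and 8 of 8 T cell and intraepithelial lymphocyte genes above the limit, where the wild-type stem array had 6 of 10 and 3 of 8. In such bulk samples fewer cells of a type and less RNA per cell cannot be told apart, and the part that cell type makeup has in the differences below was not tested.

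The first comparison asks how the ribosomal protein genes stand in Lgr5-sorted cells beside the non-stem cells of the same genotype. Of the 44 genes, 36 read higher on the wild-type stem array and 8 lower, with a median difference of 0.40, 25th and 75th percentiles of 0.06 and 0.79 and a range of -0.45 to 1.57. Rpl4 rose 2.19-fold, with 11.10 on the wild-type stem array against 9.97 on the non-stem array. Rpl22l1, the paralog of Rpl22, was also called, with 5.13 against 3.55, but both values lay under their control limits and no fold is given. These 2 were the only calls, 2 of 44 (4.55%) beside 3.82% of all genes called higher. Of the 5946 brighter genes, those whose mean lay above the mean control limit, 12.4% were called higher. At the same limit 0 of the 44 were called lower, beside 7.07% of all genes and 16.7% of the brighter genes. The share called higher was near that of all genes and under that of the brighter genes.

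At a limit of 1.5-fold, 18 of the 44 were called higher, beside 6.86% of all genes, and 0 lower, beside 10.7%. Of the 5946 brighter genes, 23.5% were called higher and 28.7% lower at 1.5-fold. Beside them the ribosomal protein genes had the larger share higher (40.9%) and none lower. Rpl12 differed by 0.95, Rps20 by 0.94 and Rpl6 by 0.88. Rps20 encodes a protein of the small subunit head that is ubiquitinated when ribosomes collide, and it read 7.07 on the wild-type stem array against 6.13 on the non-stem array. Rpl31, at 4.48 on the wild-type stem array against 3.37 on the non-stem array, had a difference of 1.11 that was under both the level limit and the control limits.

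At the other end stood Rps4l (-0.45), Rpl7l1 (-0.39), Rps27l (-0.32), Rpl22 (-0.18), Rpl19 (-0.15) and Rplp0 (-0.14), none of them called. Rplp0, which anchors the stalk, read 8.56 on the wild-type stem array against 8.70 on the non-stem array. Of these 6, 3 are paralogs: Rps4l, Rpl7l1 and Rps27l, the last a p53 target. The large subunit genes had a median of 0.46 and the small subunit genes 0.13, with ranges of -0.39 to 1.57 and -0.45 to 0.94 that overlap over most of their length. The 13 cell division genes measured had a median difference of 1.98 in the same comparison, with 11 called higher. Hepatocyte genes had a median of -9.36 and kidney genes -7.09. Whether dividing cells on the one array or liver and kidney transcripts on the other have a part in the difference of the ribosomal protein genes was not tested.

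**Figure D2:**
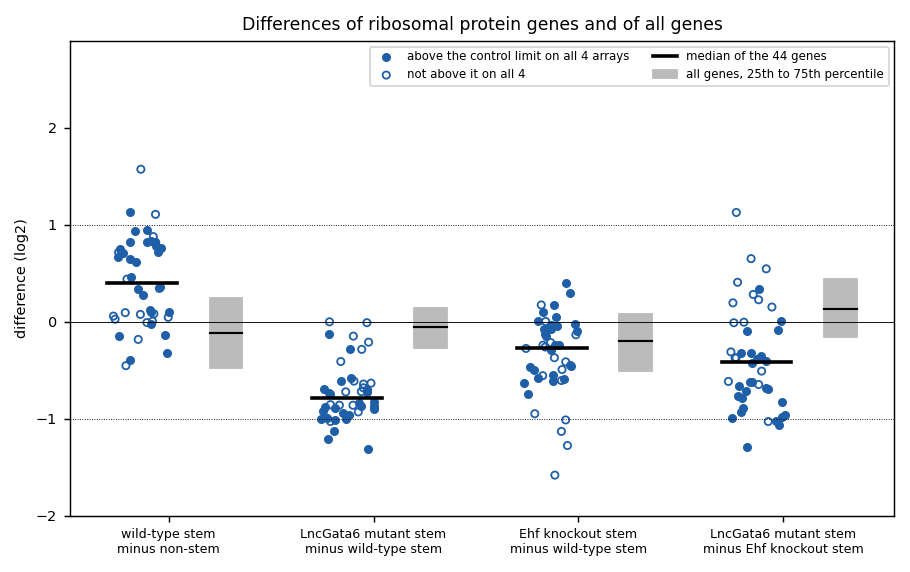
Log2 differences of the 44 ribosomal protein genes (points) in each comparison, with their median (thick bar); the grey boxes give the 25th to 75th percentile and the median of all 30702 genes, and dotted lines mark 2-fold. The points lie mostly above the grey box in the wild-type stem against non-stem comparison, at a median of 0.40, and below it in LncGata6 mutant against wild-type stem, at -0.79; in Ehf knockout against wild-type stem, whose median of -0.27 turns to 0.02 under cyclic loess and 0.0015 under quantile normalization, they overlap it.

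The second comparison sets the LncGata6 mutant array against the wild-type stem array. Lgr5 read 3.03 and 9.41 on them and their marker lists differ. The mutation and the cell type makeup therefore cannot be told apart. The median of the 44 genes was -0.79, with 25th and 75th percentiles of -0.92 and -0.63 and a range of -1.32 to 0.00. All 19 small subunit genes and 24 of 25 large subunit genes read lower on the LncGata6 mutant array, and the remaining gene, Rpl3l, differed by 0.00. The medians were -0.72 for the large and -0.86 for the small subunit. Under the other 3 scalings 41 or 42 of the 44 read lower. Of the 44, 6 (13.6%) fell past the 2-fold limit, beside 3.01% of all genes and 10.6% of the 5946 brighter genes called lower. At the same limit 0 rose, beside 2.8% and 8.66%. At 1.5-fold, 31 of 44 (70.5%) were called lower, beside 6.89% of all genes and 24.4% of the 5946 brighter genes, and 0 higher, beside 5.33%.

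Rpl35, a protein near the exit of the tunnel whose start sequence carries the longest tract of the 6 shown, read 8.70 in LncGata6 mutant, 9.98 in Ehf knockout, 10.01 in wild-type stem and 9.40 in non-stem cells. It fell 2.49-fold against wild type, the largest difference of the 44, and was lowest on the LncGata6 mutant array. The ID of this brighter feature names chromosome 1, while the start shown lies on chromosome 2. The feature on chromosome 2 differed by -1.07, less than Rpl8 (-1.21) and Rpl37a (-1.13), so the rank depends on the feature read. Rpl8, which lies close to the peptidyl transferase centre, read 7.44, 8.50, 8.65 and 8.18 in the same order and fell 2.31-fold. Rpl37a, with no tract in its window, read 6.56, 7.22, 7.69 and 7.41 and fell 2.19-fold. In these 3 genes the mutant array was at least 0.66 below each of the other 3 arrays.

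The other 3 that fell were small subunit genes just past the limit. Rps20 read 6.07 on the LncGata6 mutant array against 7.07 on the wild-type stem array and fell 2.00-fold. Rps3a2, at 8.98 against 9.99, fell 2.02-fold, and Rps3a3, at 8.64 against 9.64, fell 2.01-fold. Both are among the listed pseudogenes and are near-copies of Rps3a1, a protein of the mRNA exit site, which read 8.77 against 9.64 (-0.88). Probes of such copies may bind the same transcripts, which was not tested, so these 3 features may not be independent readings. Rps28 differed by -1.03, but its brighter value of 4.83 lay under the level limit.

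Among the genes of known role, Rpsa, a small subunit protein first described as a laminin receptor precursor, read 7.50 on the LncGata6 mutant array against 8.46 on the wild-type stem array (-0.96). X-linked Rps4x read 6.85 against 7.75 (-0.90) and Rplp0 7.70 against 8.56 (-0.87), and all 3 passed the 1.5-fold limit. Rpl38, whose loss in mice impairs translation of Hox mRNAs, differed by only -0.29, with 8.18 against 8.47. The differences nearest 0 belonged to Rpl3l (0.00), Rps4l (-0.01), Rps27l (-0.13), Rpl39l (-0.15), Rpl11 (-0.21) and Rpl10l (-0.28). Of these 6, 5 are paralogs, and Rps27l alone exceeded the control limit on all arrays, with 6.03 on the LncGata6 mutant array against 6.16 on the wild-type stem array.

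The size of the shift depended on the scaling. Cyclic loess, which aligns the arrays at each intensity, gave a median of -0.57 and 0 calls lower, beside 2.12% of all genes, and quantile normalization gave -0.69 and 4 calls lower, beside 2.64%. Over the same pair of arrays as deposited, 3.01% of all genes and 10.6% of the brighter genes were called lower, and 2.8% and 8.66% higher. There the cell division genes had a median of -0.93 (5 of 13 called lower), the 9 stem cell genes -1.21 (6 called lower) and 7 Paneth genes -1.84 (7 called lower). The 6 endothelial genes had -2.83 (5 called lower), with 0 above the control limit on the LncGata6 mutant array and 4 on the wild-type stem array. In the other direction, 10 enterocyte genes had 4.60 and 8 T cell and intraepithelial lymphocyte genes 4.10, every gene of both lists called higher. The part these populations have in the ribosomal protein values was not tested.

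The next comparison sets Ehf knockout against wild-type stem cells. As deposited, 36 of the 44 genes read lower on the Ehf knockout array and 8 higher. Of all 30702 genes 21090 read lower there, and of the 5946 brighter genes 4294. The median of the 44 genes, -0.27, differed little from the -0.20 of all genes and the -0.35 of the 5946 brighter genes. With each array centred on its median the value was -0.09, under quantile normalization 0.0015 (22 higher, 22 lower) and under cyclic loess 0.02 (23 higher, 21 lower), so the direction of the group is set by the scaling. Rpl22l1, at 4.0 on the Ehf knockout array against 5.13 on the wild-type stem array, and Rps24, at 4.57 against 5.59, were called lower, both under the control limits and without a fold. These 2 of 44 (4.55%) stand beside 5.28% of all genes and 17.1% of the 5946 brighter genes called lower. At the same limit 0 were called higher, beside 2.59% and 5.25%. At 1.5-fold, 8 (18.2%) were called lower, beside 10.3% and 34.6%, and 0 higher, beside 4.16% and 10.2%. The share called lower was under that of the brighter genes at both limits.

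Single genes ran both ways. Rpl6l differed by 0.40, with 7.95 on the Ehf knockout array against 7.54 on the wild-type stem array, and Rps29 by 0.30, with 9.12 against 8.83. Rps9 and Rpl39, a small protein of the tunnel wall, each differed by 0.17, Rplp0 by 0.10 and Rps7 by 0.05. At the low end Rpl31 (-1.58) and Rpl39l (-1.28), a form of male germ cells, were under the level limit. Rpl6 differed by -0.95 and Rps15, in the small subunit head, by -0.75, with 7.36 against 8.11. On this array the neutrophil list stood at a median difference of 7.38, the epithelial list at -5.31 and the endothelial list at -3.09, so the arrays compared hold transcripts of different cell types, and the part of that in the single gene values was not tested.

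The mutant arrays were also set against each other, which uses neither wild-type array. Of the 44 genes, 34 read lower on the LncGata6 mutant than on the Ehf knockout array and 10 higher, with a median difference of -0.41 where all genes had 0.13 and the 5946 brighter genes 0.21. Of the 44, 4 (9.09%) fell past the 2-fold limit, beside 3.47% of all genes and 9.64% of the 5946 brighter genes called lower. That count is near the share of the brighter genes. At the same limit 0 rose, beside 6.16% and 20.4%. At 1.5-fold, 19 of 44 (43.2%) were called lower, beside 5.82% and 17.5%, and 0 higher, beside 9.72% and 32.3%. The median was -0.58 after centring on array medians, -0.60 under cyclic loess and -0.69 under quantile normalization.

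Rpl35 fell 2.44-fold in this pair, with 8.70 against 9.98, and Rpl8 2.10-fold, with 7.44 against 8.50. The Rpl35 feature on the gene's own chromosome differed by -0.66, short of the limit. Rps3a2 fell 2.04-fold, with 8.98 against 10.00. Rps9, a protein of the mRNA entry site whose start also holds the tract, read 4.63 on the LncGata6 mutant array, under its control limit of 5.31, and 5.66 on the Ehf knockout array, and was at least 1.28-fold lower. Rps29 (-0.996) and Rpl6l (-0.99) stopped just short of the limit. The highest differences were those of Rpl39l (1.13), Rpl31 (0.65), Rps4l (0.55), Rpl22l1 (0.41), Rps27l (0.33) and Rpl11 (0.28), none called and 4 of them paralogs. Enterocyte genes had a median of 7.26 and neutrophil genes -7.40 in the same pair, so a difference of cell type between the arrays runs alongside, and its part was not tested.

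Across genes, which are not independent replicates, the differences of wild-type stem over non-stem and of LncGata6 mutant over Ehf knockout, which share no array, had a Pearson's r of 0.11 over the 44 genes and 0.07 over all 30702. The other pairs of comparisons share an array and were not correlated.

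The genes were also described by how closely they followed the others. Each value was taken relative to the median of the 44 genes on its array, and the SD of these 4 relative values was computed for the 27 genes above the control limit on all arrays. The 3 smallest SDs were those of Rpl32l (0.048), Rps3a1 (0.080) and Rps4x (0.080). Rpl32l lay above the median by 1.99 in LncGata6 mutant, 1.90 in Ehf knockout, 1.97 in wild-type stem and 1.90 in non-stem cells. The 3 largest were those of Rps27l (0.535), Rpl7l1 (0.461) and Rplp0 (0.390). Rps27l had relative values of -0.67, -1.5, -1.46 and -0.46 in the same array order, nearest to it on the non-stem array. Rpl7l1 was also nearest to the median on the non-stem array, at -0.51, and furthest from it on the wild-type stem array, at -1.58. Rplp0 was furthest above the median on the non-stem array, by 1.76, and nearest on the wild-type stem array, by 0.95.

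The paralogs can be read beside their parents where both have a feature of 1 symbol, each against itself. Rpl22l1, under the control limit throughout, differed by 1.57 between the wild-type stem and non-stem arrays and Rpl22 by -0.18, with 5.17 against 5.35. Rpl39l, at background, and Rpl39 differed by 0.82 and 0.83 in that pair, and by -0.15 and -0.61 between the LncGata6 mutant and wild-type stem arrays. Rpl7l1 and Rpl7 differed by -0.70 and -0.63 between the LncGata6 mutant and wild-type stem arrays, and Rps4l and Rps4x by -0.01 and -0.90. Rps27l, Rpl3l and Rpl10l, a testis form, have parents without a feature of 1 symbol. Over the 7 paralogs the median difference between the LncGata6 mutant and wild-type stem arrays was -0.15, and over the other 37 genes -0.86. Of the 7, 4 exceeded the control limit on no array and 1 on a single array, so most of these readings are at background, and the 2 above it on all arrays, Rpl7l1 and Rps27l, differed by -0.70 and -0.13.

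Ribosomal protein genes have many copies in the genome, so it was asked whether the value of a gene depended on the feature read. For 6 of the 44 (Rpl31, Rpl7a, Rpl27, Rpl35, Rpl41 and Rpl12) the feature's ID names another chromosome than the one the reference table gives for the gene. Over all 31064 named features with both entries, 99.6% named the same chromosome. Rpl35, Rpl7a, Rpl27 and Rpl41 also have a feature on their own chromosome. Between the LncGata6 mutant and wild-type stem arrays the feature on the gene's own chromosome differed by -1.07 for Rpl35 (the brighter feature by -1.32), by -0.83 for Rpl7a (-0.75), by -0.54 for Rpl27 (-0.99) and by -0.89 for Rpl41 (-0.87). The second feature of Rps26 differed by -0.93, where the first differed by -0.92. Every one of these 10 features read lower on the LncGata6 mutant array, and the largest disagreement was that of Rpl27, whose own-chromosome feature was under the control limits. The own-chromosome feature of Rpl41 was also under the limits of both arrays compared, with 4.70 on the LncGata6 mutant and 5.58 on the wild-type stem array.

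**Figure D3:**
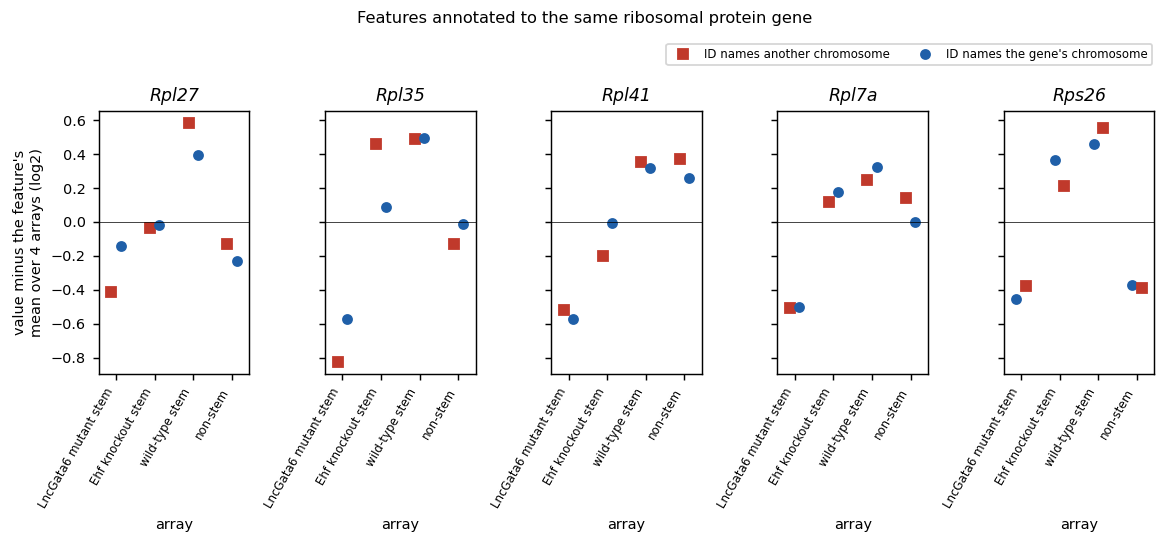
For 5 genes with several features, each panel shows the value of a feature on each array minus that feature's mean over the 4 arrays (log2); blue circles are features whose ID names the gene's chromosome and red squares those naming another, and the third Rps26 feature with a mean of 1.72 is left out. Both features of each gene lie below their mean on the LncGata6 mutant array, and the gap between them is widest for Rpl35 on the Ehf knockout array and for Rpl27 on the LncGata6 mutant array.

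The rest of the protein synthesis machinery was read from lists of other genes. The 47 ribosome biogenesis genes process ribosomal RNA and assemble the subunits. Their median difference between the LncGata6 mutant and wild-type stem arrays was -0.79. Of them 18 (38.3%) fell, beside 3.01% of all genes and 10.6% of the 5946 brighter genes, and 0 rose, beside 2.8% and 8.66%. Only 11 of the 47 exceeded the control limit on the LncGata6 mutant array, and 24 on the wild-type stem array. Nop58, a core protein of box C/D small nucleolar particles, read 6.13 in LncGata6 mutant, 6.79 in Ehf knockout, 8.0 in wild-type stem and 5.61 in non-stem cells. Ncl, the nucleolar protein nucleolin, read 6.52, 7.51, 8.34 and 6.66 in that order. Both were highest on the wild-type stem array, and Ncl was lowest on the LncGata6 mutant array. Between the wild-type stem and non-stem arrays 11 of the 47 (23.4%) rose and 0 fell, with a median of 0.44. Of all genes 3.82% were called higher there, and of the brighter genes 12.4%. Between the Ehf knockout and wild-type stem arrays 6 (12.8%) fell and 0 rose, with a median of -0.60. Of all genes 5.28% were called lower there, and of the brighter genes 17.1%, a larger share than in the list. Between the mutant arrays 1 (2.13%) rose, beside 6.16% of all genes. It was Sbds, with 7.0 on the LncGata6 mutant array against 5.57 on the Ehf knockout array. Counts of the lists that follow are set beside the same shares of all genes or of the brighter genes.

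Elongation and other factors whose mRNAs are also of the oligopyrimidine kind (17 genes) had medians of 0.62 between the wild-type stem and non-stem arrays (3 rose, 0 fell), -0.64 between the LncGata6 mutant and wild-type stem arrays (0 rose, 4 fell) and -0.56 between the Ehf knockout and wild-type stem arrays (0 called). The 3 that rose made 17.6% of the list, beside 3.82% of all genes and 12.4% of the brighter genes. The 4 that fell made 23.5%, beside 3.01% and 10.6%. Eef1g, a subunit of the eEF1 elongation factor complex, read 7.04, 7.55, 8.26 and 7.25 on the LncGata6 mutant, Ehf knockout, wild-type stem and non-stem arrays. Npm1, the nucleolar chaperone nucleophosmin, read 7.44, 8.01, 8.60 and 7.16 in that order. The 16 initiation factors had medians of 0.35, -0.86 and -0.75 in the same 3 comparisons, with 1 rising in the first, 4 falling in the second and 0 called in the third. The 1 rising made 6.25%, under the 12.4% of the brighter genes, and the 4 falling made 25%, above the 10.6%. Eif3a, the scaffold of initiation factor eIF3, read 7.26 on the LncGata6 mutant array against 8.68 on the wild-type stem array. Of the 17 RNA polymerase I genes 1, Polr2h, fell in each mutant (5.88%). That share was under the 10.6% (LncGata6 mutant) and 17.1% (Ehf knockout) of the brighter genes called lower. The medians of these 17 genes in the same 3 comparisons were 0.02, -0.41 and -0.41. Under the other 3 scalings these medians were 0.08 to 0.22, -0.40 to -0.37 and -0.23 to -0.06, so the last lost most of its size. Between the Ehf knockout and wild-type stem arrays those scalings also brought the biogenesis list to -0.42 to -0.26, the oligopyrimidine factors to -0.39 to -0.24 and the initiation factors to -0.57 to -0.39. Larp4 was the only 1 of 18 mTOR and S6 kinase pathway genes that fell on the LncGata6 mutant array, with 5.97 against 7.13. This 5.56% was under the 10.6% of the brighter genes. The 14 ribosome quality control genes had medians of -0.15, -0.08 and -0.54, the first turning to 0.10 under quantile normalization and the second to 0.09 under cyclic loess. Abce1, the factor that splits ribosomes for recycling, fell on the LncGata6 mutant array, with 6.29 against 7.89. In the short list of MDM2 and p53 genes (8 measured) 0 were called between the LncGata6 mutant and wild-type stem arrays.

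**Figure D4:**
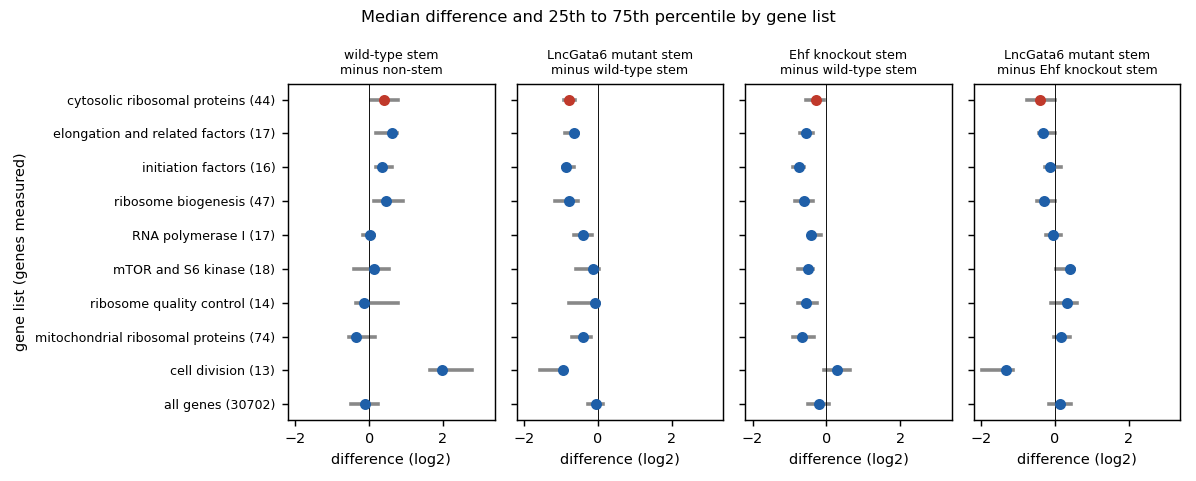
Median log2 difference (dots) and 25th to 75th percentile (bars) of each gene list in the 4 comparisons, with the number of genes measured in brackets. Ribosomal protein and biogenesis genes share a median of -0.79 in LncGata6 mutant against wild-type stem, while mitochondrial ribosomal proteins had -0.39 there; in Ehf knockout against wild-type stem the ribosomal protein median of -0.27 turns to 0.02 under cyclic loess and 0.0015 under quantile normalization.

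The proteins of the mitochondrial ribosome, encoded by 74 measured nuclear genes, stood on the other side of 0 from the cytosolic ones between the wild-type stem and non-stem arrays, with a median of -0.35 (-0.24 to -0.07 under the other scalings), 22 above 0 and 52 below, where 36 of the 44 cytosolic genes were above. Between the mutant arrays their median was 0.18 as deposited, which turned to -0.08 under cyclic loess and -0.13 under quantile normalization, where the cytosolic genes had -0.41. Between the LncGata6 mutant and wild-type stem arrays both were below 0, at -0.39 and -0.79. The control limit was exceeded by 18 of the 74 in LncGata6 mutant, 15 in Ehf knockout, 26 in wild-type stem and 48 in non-stem cells. Many of the mitochondrial readings are therefore at background. Mrpl42 fell in both mutants, with 6.82 on the LncGata6 mutant array and 6.38 on the Ehf knockout array, against 8.07 on the wild-type stem array. Fau, the gene of a small subunit protein made as a fusion and outside the naming rule, differed by 0.12 between the LncGata6 mutant and wild-type stem arrays, with 9.04 against 8.92, above the highest of the 44 (0.00). Gm10036, the other measured gene of the list kept for ribosomal genes outside the rule, differed by -0.86, with 9.13 against 9.99, within the range of the 44.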

How the data were processed

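The deposited series table holds the authors' log2 values, 1 per feature and array, for 72688 features on 4 arrays. Affymetrix Power Tools and RMA are the tools in the submitters' processing notes, without versions. RMA subtracts background, scales the arrays and summarises probes, which compresses differences of dim features. No genome build was given for the features. Platform symbols were updated through a RefSeq table (GRCm38.p6). Of the features, 31258 had 1 distinct symbol and 1492 several, which were left out. All columns of values were used.

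Differences are log2 values of 1 array minus another. Calls need a difference of 1 and a brighter value at or above the 75th percentile. A dimmer value below the control limit (95th percentile of 5222 negative controls) was replaced by it in the fold ("at least"), and 2 such values give no fold. The call rule was checked on simulated data.

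Members and lists were chosen with earlier results of these data known. The mitochondrial set, the -ps set, features of several symbols, the tract and 2 alternatives (own-chromosome features, no listed pseudogenes) were added after the values were seen. Genes were named by rule: the 6 brightest and dimmest, the 6 highest and lowest differences and all calls per comparison, paralogs with parents, genes fixed by role, the 3 most and least alike, and in other lists up to 3 of the largest called differences. Fau, Gm10036, Rps28 and a few genes given as contrasts (Rpl38, Rps29, Rps9, Rpl39, Rps3a1) partly lie outside it and were chosen after their values were seen. Alternatives were median centring, quantile and cyclic loess normalization (limma 3.58.1, R 4.3.3), other limits and other members. Tables used Python 3.11.15, pandas 2.3.3, numpy 2.4.6 and matplotlib 3.10.9.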

Additional observations from a re-analysis of the deposited data

How the results depend on the processing

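No result here has a test, and with 1 array per group no array could be left out and no paired analysis was possible because no group has a second replicate. Centring on array medians moved the all-gene medians of 3 comparisons by over 0.1, to 0.01 for wild-type stem minus non-stem, -0.02 for Ehf knockout minus wild-type stem and -0.04 for LncGata6 mutant minus Ehf knockout. The LncGata6 mutant minus wild-type stem median of the 44 genes stayed below 0, between -0.87 and -0.57, and the wild-type stem minus non-stem median above 0, between 0.35 and 0.62, under the 8 alternatives that can move a median (the 1.5-fold limit and the missing level limit change calls only). Shares of all genes called under the same setting stand in brackets. Centring gave 0.52 and 4 calls higher (4.59%) for wild-type stem minus non-stem, -0.091 and 0 calls lower (4.07%) for Ehf knockout minus wild-type stem, and -0.58 and 9 calls lower (4.42%) for LncGata6 mutant minus Ehf knockout. Quantile normalization gave 0.60 and 8 calls higher (5.63%), 0.0015, turned in sign, and 0 calls lower (3.36%), and -0.69 and 7 calls lower (4.73%) for the same comparisons. Cyclic loess gave -0.57 and 0 calls lower (2.12%) for LncGata6 mutant minus wild-type stem, 0.016, turned in sign, and 0 calls lower (3.38%) for Ehf knockout minus wild-type stem, and -0.60 for LncGata6 mutant minus Ehf knockout. The cause was not tested. A 1.5-fold limit gave 18 calls higher (6.86%) for wild-type stem minus non-stem. It gave 31 lower (6.89%) for LncGata6 mutant minus wild-type stem, 8 (10.3%) for Ehf knockout minus wild-type stem and 19 (5.82%) for LncGata6 mutant minus Ehf knockout. In the same order the shares of the 5946 brighter genes were 23.5%, 24.4%, 34.6% and 17.5%. Without the level limit Ehf knockout minus wild-type stem had 4 calls lower (8.02%) and LncGata6 mutant minus Ehf knockout 1 higher (8.38%). Without the 7 paralogs, fewer genes being counted, wild-type stem minus non-stem had 1 call higher, Ehf knockout minus wild-type stem 1 lower and LncGata6 mutant minus Ehf knockout a median of -0.62. Over the 29 genes with a mean above the mean control limit, wild-type stem minus non-stem had 0.62 and 1 call higher (12.4%), Ehf knockout minus wild-type stem 0 calls lower (17.1%) and LncGata6 mutant minus Ehf knockout -0.66. The median of a gene's features, features on the gene's own chromosome only, and leaving out listed pseudogenes moved no count by over 1.5 times. Signal over background limits the 11 genes that passed the control limit on no array.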

Other observations

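Beside the named genes, 52 features carry several symbols that include a cytosolic ribosomal protein name, 38 of these names being genes without a feature of their own. All 52 read lower on the LncGata6 mutant than on the wild-type stem array. Their median difference was -0.82, with a range of -1.28 to -0.27. Of them 10 were called lower, beside 3.01% of all genes and 10.6% of the 5946 brighter genes. Between the wild-type stem and non-stem arrays 45 of 52 read higher, with a median of 0.44. There 5 were called higher, beside 3.82% of all genes and 12.4% of the brighter genes. Between the Ehf knockout and wild-type stem arrays the median was -0.20 as deposited, other scalings not being run for these features. There 2 were called lower, beside 5.28% of all genes and 17.1% of the brighter genes. Between the LncGata6 mutant and Ehf knockout arrays the median was -0.56 and 7 were called lower, beside 3.47% and 9.64%.

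A further 220 genes are ribosomal protein pseudogenes by name (ending in -ps). Their median difference between the LncGata6 mutant and wild-type stem arrays was -0.73, with 213 lower, 7 higher and 52 called lower (23.6%, beside 3.01% of all genes). Between the wild-type stem and non-stem arrays it was 0.52, with 21 called higher (9.55%, beside 3.82%), between the Ehf knockout and wild-type stem arrays -0.13 as deposited and 0.05 to 0.10 under the other 3 scalings, with 3 called lower (1.36%, beside 5.28%), and between the LncGata6 mutant and Ehf knockout arrays -0.54, with 32 called lower (14.5%, beside 3.47%). Of the 5946 brighter genes, 10.6% were called lower between the LncGata6 mutant and wild-type stem arrays. Between the wild-type stem and non-stem arrays 12.4% of them were called higher, above the 9.55% of the pseudogenes. Their shares called lower were 17.1% between the Ehf knockout and wild-type stem arrays and 9.64% between the mutant arrays. The control limit of the wild-type stem array was exceeded by 160 of the 220 pseudogenes. How far the probes of these pseudogenes bind transcripts of the parent genes was not tested.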
